A study of Mus musculus with 13 samples.

Results

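Chemokines are small secreted proteins that steer white blood cells, and the 45 genes described here are 30 chemokine ligands and 15 receptors, among them 5 atypical receptors. The members were taken by gene symbol and each matched 1 gene ID, so that 45 of the 46679 IDs in the tables are covered. The study asked what a mammary tumor at a distance does to gene expression in the lung. RNA was measured in 3 groups of female FVB mice aged 10 weeks and bought from Taconic: the lungs of 4 mice without a tumor, in 6 libraries, the lungs of 4 tumor-bearing mice, and the mammary tumors of 3 of those mice. Tumors came from Met1, a single mouse mammary tumor line, of which 250000 cells were placed in an inguinal mammary fat pad at 8 weeks of age, 2 weeks before tissue was taken. The labels mark the normal group as free of tumor, do not say whether it had a sham injection, and give no genotype other than the strain and no other treatment. Samples of 20 mg were not sorted into cell types, so lungs hold epithelium, vessels, airways and blood cells together, and tumors likewise hold Met1 cells and host cells. In such bulk tissue fewer cells of a type and less RNA per cell cannot be told apart.

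Ligands are named after the spacing of their first cysteines, as CC, CXC or CX3C chemokines, and act on receptors coupled to inhibitory G proteins. The signaling receptors are carried mostly by leukocytes: Ccr2 by monocytes, Cxcr3 by T and natural killer cells, Cxcr5 by B cells and Ccr7 by dendritic cells and lymphocytes on their way to lymph nodes. Atypical receptors bind chemokines without driving migration and remove or store them. Ccrl2, counted among them here, binds chemerin, which is no chemokine, and presents it on a cell's surface. In the lung, Cxcl15 is made by epithelium, and in tumors Ccl2 and its relatives are known for drawing monocytes, while Cxcl9, Cxcl10 and Cxcl11 are known as targets of interferon gamma.

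Many members lie side by side. On chromosome 11 of GRCm38, Ccl2 (82035571 to 82037453), Ccl7, Ccl11, Ccl12 and Ccl8 (82115185 to 82116799) form a cluster, and Ccl5, Ccl9, Ccl6, Ccl3 and Ccl4 a second one. On chromosome 5, Cxcl9 (92321347 to 92328079), Cxcl10 (92346638 to 92348889) and Cxcl11 (92359544 to 92365485) are neighbours on the minus strand. The annotation lists Cxcl11 as a polymorphic pseudogene, and Art3 overlaps Cxcl10 and Cxcl11 on the other strand. Whether the counting used strand is not given in the sources used here. Ccl19 has near-identical pseudogene copies, so its counts are uncertain.

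Promoter sequences of 3 ligands that stood high in the tumors are printed because 2 of them hold a motif known from cytokine-driven genes. Each is the 250 bases before the gene's start in RefSeq on GRCm38.p6, written 5′ to 3′ on the gene's strand: Cxcl9 from chr5:92328080-92328329 on the minus strand, Cxcl10 from chr5:92348890-92349139 on the minus strand and Cxcl1 from chr5:90890995-90891244 on the plus strand. Capitals mark the motif GAAANNGAAA, the core of the interferon-stimulated response element, in Cxcl10, and the NF-kappaB motif GGGNNTTTCC, read on either strand, in Cxcl1.
Cxcl9: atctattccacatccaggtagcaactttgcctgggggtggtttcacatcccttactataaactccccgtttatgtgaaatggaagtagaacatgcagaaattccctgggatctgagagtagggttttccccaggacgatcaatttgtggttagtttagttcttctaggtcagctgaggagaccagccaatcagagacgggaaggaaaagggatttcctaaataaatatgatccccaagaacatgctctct
Cxcl10: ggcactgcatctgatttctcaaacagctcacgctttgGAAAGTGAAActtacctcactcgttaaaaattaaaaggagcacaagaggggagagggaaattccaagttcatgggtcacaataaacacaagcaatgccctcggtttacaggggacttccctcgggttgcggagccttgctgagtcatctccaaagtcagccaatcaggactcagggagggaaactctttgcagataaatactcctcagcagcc
Cxcl1: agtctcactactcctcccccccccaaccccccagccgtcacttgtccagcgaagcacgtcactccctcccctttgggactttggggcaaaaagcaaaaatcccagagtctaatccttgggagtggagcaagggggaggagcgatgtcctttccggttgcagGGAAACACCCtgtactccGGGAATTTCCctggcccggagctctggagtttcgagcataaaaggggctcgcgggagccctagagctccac
Motifs were searched on both strands in windows of 300 bases, from 250 before to 50 after the start, and no matches of different motifs overlap in these 3 promoters. The table of promoters holds 34 of the 45 members. GAAANNGAAA was in the windows of 3 members (Ccl19, Cxcl10 and Cxcl14) and in 3.44% of 32851 promoters. GGGNNTTTCC was in those of 6 members (Ccl9, Ccl20, Cxcl1, Cxcl2, Cxcl3 and Ccr3) and in 1.63% of all. The STAT core TTCNNNGAA was in those of Ccl17, Cxcl14 and Ccr6 and in 8.3% of all. Cxcl9 held none of the 3 motifs in this window. In Cxcl10 the match begins 213 bases before the start, and in Cxcl1 the matches begin 89 and 71 bases before it.

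Libraries held 8321037 to 13982903 estimated counts. Preparation batch, as the labels give it, was uneven: in the fits batch 1 held 2 normal and 3 tumor-bearing lungs, and batch 2 held 2 normal lungs, 1 tumor-bearing lung (mouse 6877) and the 3 tumors. Mice 6886 and 6888 of the normal group have a library in either batch, and the fits use that of batch 1. Markers matched the labels of lung and tumor. The summed CPM (counts scaled to the library size, itself scaled by TMM factors) of 5 genes of alveolar and airway epithelium was 2.81 to 23.9 in the tumors, while normal lungs had 13270 to 19020 and tumor-bearing ones 9020 to 19300. The sum of 6 genes of mammary or tumor epithelium was 737 to 1079 in the tumors, 127 to 204 in the normal lungs and 108 to 151 in the tumor-bearing lungs. The heart muscle markers stood at 845 CPM in tumor-bearing lung 6879, against at most 33.6 in the other lungs of the fits. All lists of markers and pathway genes were chosen with earlier results of these data known.

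Levels of different genes are compared here per length, as TPM, which are scaled by gene length and by library. In the tumors Ccl8 led the 45 genes with 25.7 ± 6.25 TPM (SD, n = 3), followed by Cxcl9 with 7.62 ± 6.95. Next came Ccl6 with 4.05 ± 2.69, Cxcr4 with 3.95 ± 2.30 and Ccl9 with 3.39 ± 1.81 TPM (SD, n = 3). The SDs of Cxcl9, Ccl6, Cxcr4 and Ccl9 overlap, so these places do not give a firm order. In normal lung Cxcl15 was at 18.0 ± 2.61 TPM (SD, n = 4) and Ccl6 at 8.73 ± 4.13. Cxcl14 with 3.70 ± 1.33, Cxcl12 with 3.68 ± 1.90 and Cxcr4 with 2.69 ± 0.759 TPM (SD, n = 4) followed, and did not differ beyond their spread. Tumor-bearing lungs had the same leading 2 genes, Cxcl15 with 9.79 ± 5.15 and Ccl6 with 3.59 ± 4.42 TPM (SD, n = 4). The place of Ccl6 there rests on lung 6877 with 10.2 TPM: in the other 3 lungs it was at 0.968 to 2.02 TPM, under Cxcl12 with 1.43 to 3.42 in each of them. TPM give places within a group and are not set against each other between the lung groups. On log2(TPM + 1) the median of all genes was itself -0.23 for tumor-bearing over normal lung. In the edgeR fit of the counts Cxcl15 had a log2 fold change of -0.14 (adjusted p = 0.631) between these groups. Ccl8 was in place 28 of 45 in normal lung and Cxcl9 in place 41, while Cxcl15 was in place 38 in the tumors. The leading ligand by TPM thus differed between the tissues. The heat map shows all members by library in CPM, which are not scaled by gene length, so its order of genes differs. In mean CPM Cxcl9 with 178 stood above Ccl8 with 92.2 in the tumors.

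**Figure D1:**
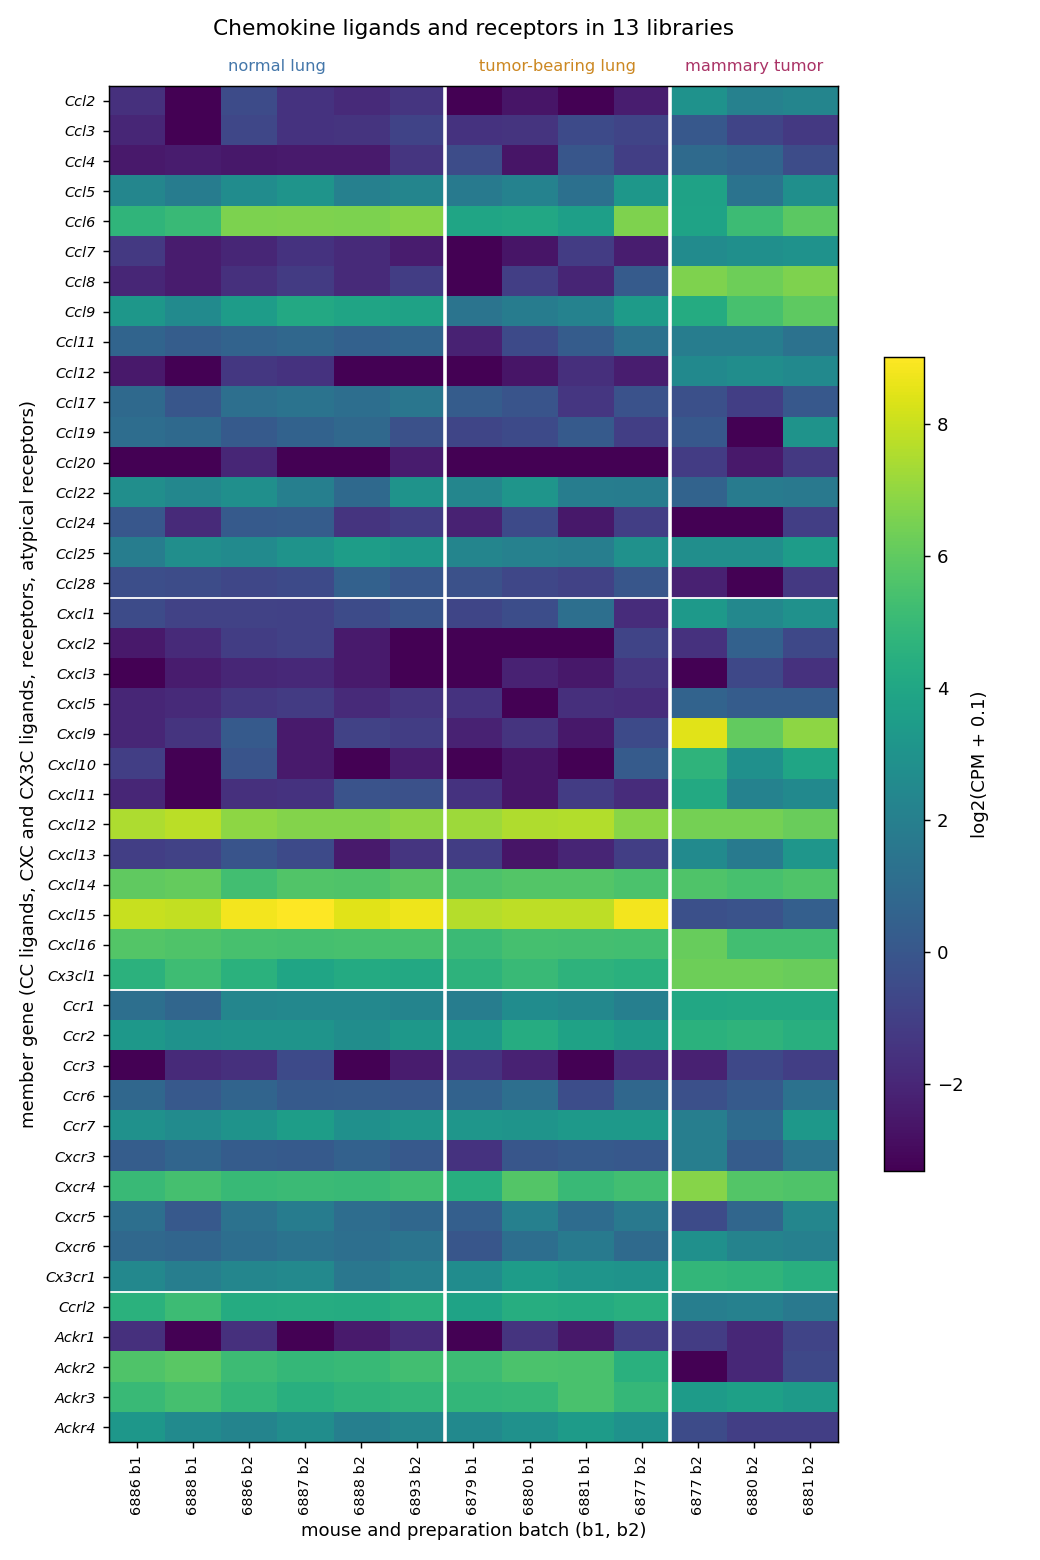
Heat map of the 45 members (rows, by role) in the 13 libraries (columns, with mouse and preparation batch), coloured by log2(CPM + 0.1). In the 3 tumors Ccl8 and Cxcl9 are bright and Cxcl15 and Ackr2 dark, the reverse of the 10 lung libraries, and Ccl6 is brighter in the lung libraries of batch 2 than in those of batch 1.

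Mammary tumors were compared with normal lung first, a comparison of 2 tissues that holds no normal mammary gland. Ligands for monocytes and for T cells, and the receptors Ccr1, Ccr2, Cxcr6 and Cx3cr1, were higher in the tumors, while all 4 tested atypical receptors and the lung ligand Cxcl15 were lower. Of 37 members tested, 25 passed the threshold of 0.05 on the adjusted p of edgeR's quasi-likelihood test, 17 higher and 8 lower. Of all 18297 genes tested, 49.3% passed, 24.5% higher and 24.7% lower. By role, 6 of 13 CC ligands were higher and 2 lower, 7 of 11 CXC and CX3C ligands were higher and 2 lower, 4 of 9 receptors were higher and none lower, and 4 of 4 atypical receptors were lower. The median log2 fold change of the tested members was 1.11, against -0.04 over all genes. Ccl2, Ccl4, Ccl7, Ccl8, Ccl12, Cxcl1, Cxcl5, Cxcl9, Cxcl10, Cxcl11 and Cxcl13 had enough counts for testing only with the tumors in the fit. All of them are among the 17 higher members. The share of higher members and this median thus rest in part on genes kept through the group where they are high. For 27 members the CPM of the groups did not overlap, against 53.6% of all genes tested. Against tumor-bearing lung, which shares the 3 tumors, 20 of 37 members passed, 15 higher and 5 lower, with 46.3% of all genes passing, 22.6% higher and 23.7% lower. There 25 members had groups without overlap, against 54.0% of all genes. All 20 were among the 25, and the other 5, which passed against normal lung only, were Ccl4 and Cxcr6 (higher) and Ccl6, Ccl17 and Cxcl12 (lower). Between the lung groups themselves Ccl6, Ccl17, Cxcl12 and Cxcr6 did not pass, and Ccl4 was too low to be tested. Without tumor-bearing lung 6877, the only one of batch 2, just 9 of the 15 passed against tumor-bearing lung, and Ccl12, Cxcl1, Cxcl5, Cxcl11, Ccr1 and Ccr2 did not. The 8 members not tested for low counts were Ccl3, Ccl20, Ccl24, Ccl28, Cxcl2, Cxcl3, Ccr3 and Ackr1, with 1.33 CPM as the highest value in any library of the fits.

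**Figure D2:**
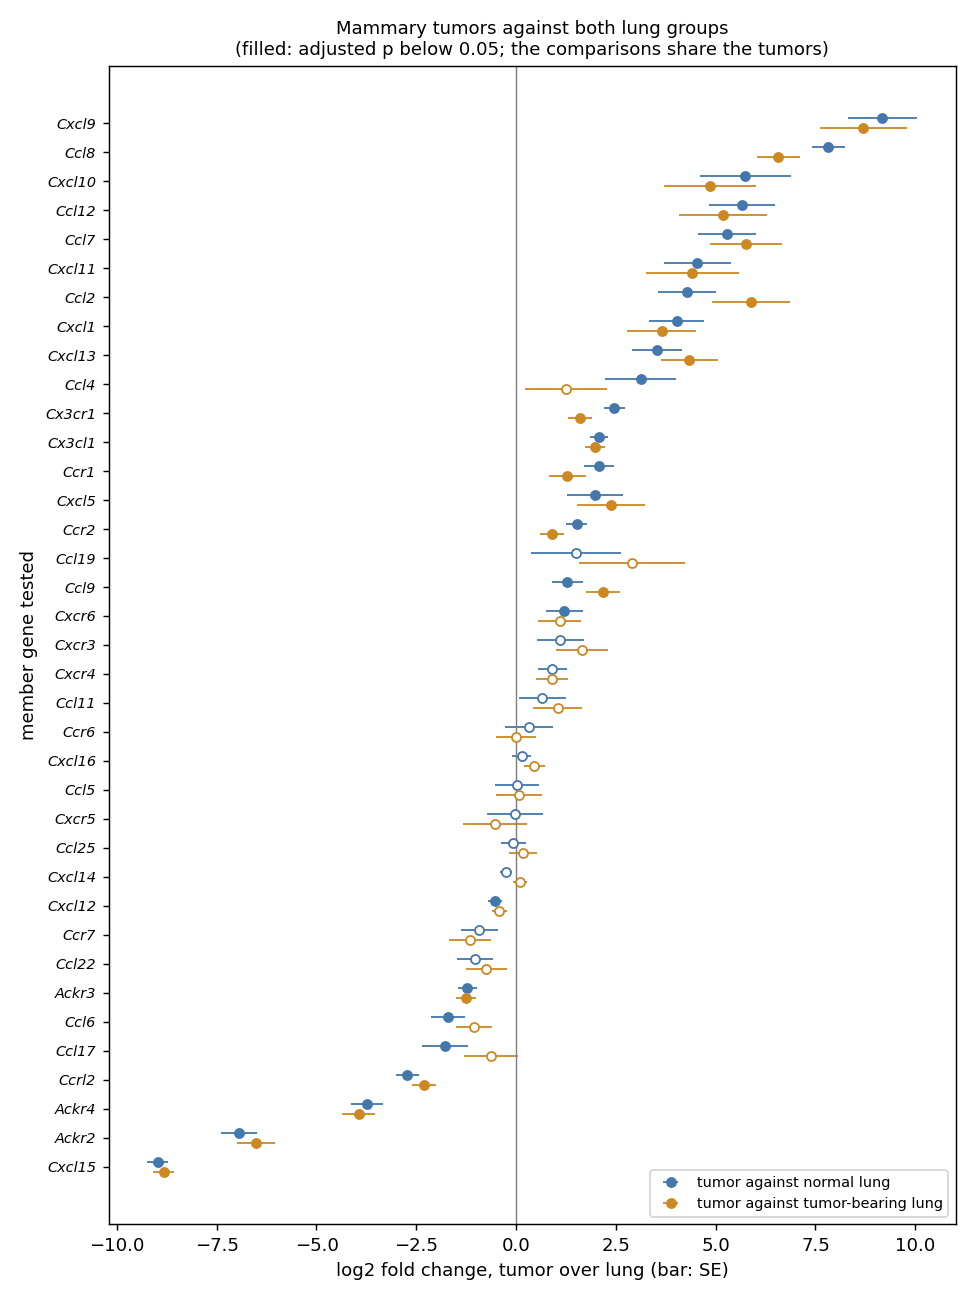
Log2 fold change of tumor over normal lung (blue) and over tumor-bearing lung (orange) for the 37 tested members, ordered by the former, with the standard error as bars and filled points for an adjusted p below 0.05. Both comparisons use the same 3 tumors; Cxcl9 and Ccl8 lie at the top, and Ackr4, Ackr2 and Cxcl15 at the bottom.

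Values are given below in CPM in a fixed order of mice: tumors 6877, 6880 and 6881; normal lungs 6886, 6888, 6887 and 6893; tumor-bearing lungs 6879, 6880, 6881 and 6877. The 3 ligands of Cxcr3 were at the edge of detection in lung. Cxcl9 stood at 348, 65.9 and 121 CPM in the tumors, 0.153, 0.267, 0.0847 and 0.365 in the normal lungs and 0.124, 0.257, 0.0725 and 0.580 in the tumor-bearing lungs. The lowest tumor, 6880, was above every lung, and tumor 6877 was the highest for all 3 ligands. The log2 fold change was 9.18 (SE 0.87, adjusted p = 5.06e-06) over normal and 8.70 (SE 1.10, adjusted p = 6.18e-05) over tumor-bearing lung. Cxcl10 stood at 25.6, 7.10 and 15.3 CPM in the tumors, 0.384, 0, 0.0847 and 0.0912 in the normal and 0, 0.0644, 0 and 1.06 in the tumor-bearing lungs. Here too no lung reached a tumor, and lung 6877 was the highest lung. The log2 fold changes of Cxcl10 were 5.75 (SE 1.14, adjusted p = 0.00133) and 4.86 (SE 1.15, adjusted p = 0.00454). Cxcl11 stood at 18.0, 4.37 and 5.61 CPM in the tumors, 0.153, 0, 0.254 and 0.730 in the normal lungs and 0.249, 0.0644, 0.362 and 0.193 in the tumor-bearing lungs, again without overlap. Its log2 fold changes were 4.54 (SE 0.84, adjusted p = 0.000856) and 4.42 (SE 1.16, adjusted p = 0.00841), and the call against tumor-bearing lung was lost without lung 6877. In all 3 genes the tumors spread widely, with 178 ± 149 CPM (SD, n = 3) for Cxcl9.

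Their shared receptor Cxcr3 did not pass in either comparison. It stood at 3.83, 1.09 and 2.57 CPM in the tumors, 1.15, 1.51, 1.02 and 1.00 in the normal lungs and 0.249, 0.901, 1.01 and 0.966 in the tumor-bearing lungs. Tumor 6880 lay within the range of the normal lungs and tumors 6877 and 6881 above it. The log2 fold changes of Cxcr3 were 1.10 (SE 0.58, adjusted p = 0.140) over normal and 1.66 (SE 0.65, adjusted p = 0.0544) over tumor-bearing lung. Tumor 6877, the highest for the ligands and for Cxcr3, also had the highest sum of 5 natural killer cell markers among the tumors, 13.8 CPM against 3.75 and 5.77 in tumors 6880 and 6881. Normal lungs had sums of 8.13 to 17.45 CPM for these markers, and lungs of tumor-bearing mice 9.50 to 20.8. Tumor 6877 lay within both ranges, and tumors 6880 and 6881 lay under them. Of the 5 markers, 2 passed as lower and none as higher against either group of lungs. The sum of 6 T cell markers was 63.9, 24.2 and 80.2 CPM in the 3 tumors, 18.0 to 49.1 in the normal lungs and 32.5 to 42.4 in the tumor-bearing lungs. In both lists and in Cxcr3 tumor 6880 was the lowest. Ccl5, which draws T cells among others, was also lowest in tumor 6880 and did not pass: it stood at 13.9, 2.5 and 6.86 CPM in the tumors and at 3.55 to 8.30 in the normal lungs. The part of these cells in the levels was not tested.

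Ccl2, Ccl7 and Ccl12 are ligands of Ccr2, the receptor with which monocytes leave the bone marrow, and Ccl8 is a ligand of the same chromosome 11 cluster. Ccl8 stood at 99.6, 79.0 and 97.9 CPM in the tumors, 0.153, 0.0888, 0.339 and 0.365 in the normal lungs and 0, 0.386, 0.145 and 1.06 in the tumor-bearing lungs. The 3 tumors were close to each other and no lung came near them. The log2 fold change of Ccl8 was 7.83 (SE 0.42, adjusted p = 7.52e-08) over normal and 6.57 (SE 0.53, adjusted p = 1.99e-06) over tumor-bearing lung. Ccl7 stood at 6.11, 6.95 and 7.64 CPM in the tumors, 0.307, 0.0888, 0.254 and 0.0912 in the normal lungs and 0, 0.0644, 0.362 and 0.0966 in the tumor-bearing lungs. Ccl12 stood at 5.75, 6.48 and 5.61 CPM in the tumors, 0.0767, 0, 0.254 and 0 in the normal lungs and 0, 0.0644, 0.217 and 0.0966 in the tumor-bearing lungs. Both were even among the tumors, and neither overlapped with the lungs. Against normal lung the log2 fold change was 5.29 for Ccl7 (SE 0.73, adjusted p = 9.90e-05) and 5.66 for Ccl12 (SE 0.83, adjusted p = 0.000157). Against tumor-bearing lung it was 5.76 for Ccl7 (SE 0.90, adjusted p = 0.000289) and 5.18 for Ccl12 (SE 1.10, adjusted p = 0.00238). The call of Ccl12 was lost there without lung 6877.

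Ccl2 itself stood at 7.78, 4.14 and 4.76 CPM in the tumors, 0.230, 0, 0.254 and 0.274 in the normal lungs and 0, 0.0644, 0 and 0.0966 in the tumor-bearing lungs, with tumor 6877 the highest. The tumors did not overlap with the lungs, whose values rest on few counts. Over normal lung its log2 fold change was 4.28 (SE 0.73, adjusted p = 0.000456). The 4 tumor-bearing lungs held 2 counts of Ccl2 in all against 179 in the tumors, a ratio of 126 (exact 95% counting interval 34.3 to 1046), and edgeR gave an adjusted p of 0.000433. The interval covers counting error alone. The receptor Ccr2 stood at 23.3, 26.1 and 22.1 CPM in the tumors, 9.51, 7.73, 8.21 and 9.40 in the normal lungs and 10.1, 20.0, 13.8 and 10.9 in the tumor-bearing lungs. All 3 tumors were above all lungs, though tumor-bearing lung 6880 came close. In edgeR it differed by a log2 fold change of 1.52 (SE 0.26, adjusted p = 0.000538) over normal and 0.91 (SE 0.30, adjusted p = 0.0270) over tumor-bearing lung. The latter call was lost without tumor 6880 or lung 6877. It was lost too with the mouse as a block and no batch term, over the 3 mice with both tissues (log2 fold change 0.66, adjusted p = 0.0609). The ligands thus differed by far more than the receptor on the log2 scale.

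Ccr1, another receptor of monocytes and neutrophils, stood at 16.5, 17.2 and 17.1 CPM in the tumors, 2.15, 1.60, 5.25 and 4.56 in the normal lungs and 3.60, 6.24, 5.22 and 3.87 in the tumor-bearing lungs. The tumors were nearly equal and above every lung. The fit gave Ccr1 a log2 fold change of 2.08 (SE 0.37, adjusted p = 0.000688) over normal lung and 1.28 (SE 0.46, adjusted p = 0.0406) over tumor-bearing lung. The second call was lost without any one of the tumors, without lung 6879 and without lung 6877. Within batch 2, where lung 6877 stands alone and is assumed to vary like the other groups, the second value was 2.17 (adjusted p = 0.000615). Among the ligands of Ccr1 other than Ccl7, Ccl9 stood at 19.3, 43.0 and 61.4 CPM in the tumors, 9.28, 5.95, 17.1 and 13.7 in the normal and 2.61, 3.48, 4.28 and 10.7 in the tumor-bearing lungs. Tumor 6877 was only a little above the highest normal lung, 6887. This made a log2 fold change of 1.29 (SE 0.39, adjusted p = 0.0169) over normal lung, a call lost without tumor 6881, normal lung 6887 or normal lung 6893, and 2.18 (SE 0.44, adjusted p = 0.00163) over tumor-bearing lung. Ccl6, a neighbour of Ccl9, went the other way. It stood at 14.4, 35.6 and 60.3 CPM in the tumors, 26.9, 32.9, 97.6 and 108 in the normal and 15.3, 16.7, 12.5 and 97.6 in the tumor-bearing lungs, so that the tumors lay within the range of the lungs. The lungs split by batch: those of batch 1 held 12.5 to 32.9 CPM and those of batch 2 97.6 to 108 CPM. The fall against normal lung, a log2 fold change of -1.71 (SE 0.43, adjusted p = 0.00564), was lost without the batch term (adjusted p = 0.378).

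Markers of monocytes and macrophages moved with this group. The sum of 7 such markers was 279 to 450 CPM in the tumors, 108 to 149 in normal lung and 111 to 147 in tumor-bearing lung. Against tumor-bearing lung 3 of the 7 passed as higher and none as lower, where 22.6% of all genes passed as higher. Markers of alveolar macrophages split by batch in the lungs as Ccl6 did: their sum was 155 and 226 CPM in the normal lungs of batch 1, 624 and 566 in those of batch 2, 97.9 to 142 in tumor-bearing lungs 6879, 6880 and 6881 and 595 in lung 6877. In the tumors it was 118 to 130. The part of these cells in the levels of the ligands and receptors was not tested.

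Fractalkine, Cx3cl1, is a ligand that can stay tethered to the membrane, and Cx3cr1 is its only receptor in this list. Cx3cl1 stood at 77.5, 78.7 and 72.5 CPM in the tumors, 23.9, 35.8, 15.1 and 17.4 in the normal and 24.9, 33.1, 24.7 and 22.9 in the tumor-bearing lungs. The tumors were even and lay above all lungs. The log2 fold change was 2.08 (SE 0.23, adjusted p = 1.89e-05) over normal and 1.97 (SE 0.25, adjusted p = 6.06e-05) over tumor-bearing lung. Cx3cr1 stood at 28.2, 26.6 and 21.8 CPM in the tumors, 5.29, 3.82, 5.42 and 4.01 in the normal and 6.34, 11.3, 8.41 and 7.92 in the tumor-bearing lungs, 3 levels without overlap between any 2 groups. In edgeR it differed by a log2 fold change of 2.46 (SE 0.27, adjusted p = 1.76e-05) and 1.60 (SE 0.30, adjusted p = 0.00111). Several genes overlap Cx3cr1, so its counts carry the doubt on strand named above. Neither pair member lost a call on leaving out any 1 library.

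Cxcl1 and Cxcl5 act on Cxcr2, the receptor that brings neutrophils into tissue. Cxcl1 stood at 9.82, 5.38 and 7.56 CPM in the tumors, 0.614, 0.444, 0.423 and 0.821 in the normal and 0.497, 0.643, 2.17 and 0.193 in the tumor-bearing lungs. All tumors were above all lungs, of which tumor-bearing lung 6881 was the highest. The fit gave Cxcl1 a log2 fold change of 4.02 (SE 0.69, adjusted p = 0.000507) over normal and 3.64 (SE 0.85, adjusted p = 0.00430) over tumor-bearing lung, the latter lost without lung 6877. Cxcl5 stood at 1.44, 1.09 and 1.09 CPM in the tumors, 0.153, 0.178, 0.339 and 0.274 in the normal and 0.249, 0, 0.217 and 0.193 in the tumor-bearing lungs, low throughout but without overlap. This made a log2 fold change of 1.99 (SE 0.70, adjusted p = 0.0330) and 2.37 (SE 0.86, adjusted p = 0.0395). These calls were lost without any one of the tumors, the first also without normal lung 6887 or 6893 and the second without lung 6877. The receptor Cxcr2, which is no member, stood at 4.55, 3.43 and 8.11 CPM in the tumors, 4.53, 6.39, 13.7 and 7.21 in the normal and 21.5, 11.5, 9.50 and 15.4 in the tumor-bearing lungs. It was lower in the tumors than in tumor-bearing lung (log2 fold change -1.89, SE 0.50, adjusted p = 0.00870). Against normal lung it did not pass (-0.81, adjusted p = 0.143). Neutrophil markers, 6 in number, summed to 12.2 to 23.7 CPM in the tumors, 10.4 to 63.6 in normal lung and 50.8 to 140 in tumor-bearing lung, with Ly6g, the defining one, at 0 in every tumor and tumor-bearing lung.

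Ligands of lymphoid tissue differed between single tumors. Cxcl13, which places B cells in follicles, stood at 5.87, 3.20 and 8.73 CPM in the tumors, 0.384, 0.444, 0.593 and 0.274 in the normal and 0.373, 0.0644, 0.145 and 0.387 in the tumor-bearing lungs. The tumors did not overlap with the lungs, and tumor 6881 was the highest. The log2 fold change was 3.53 (SE 0.62, adjusted p = 0.000610) over normal and 4.34 (SE 0.72, adjusted p = 0.000453) over tumor-bearing lung. Its receptor Cxcr5 stood at 0.599, 1.56 and 4.99 CPM in the tumors, 2.15, 0.977, 3.56 and 1.64 in the normal and 1.24, 4.05, 1.96 and 3.09 in the tumor-bearing lungs, and did not pass (adjusted p = 0.977 and 0.617). Ccl19 stood at 0.958, 0 and 7.95 CPM in the tumors and its receptor Ccr7 at 3.83, 1.87 and 9.51, so tumor 6881 led in both. In the normal lungs Ccl19 was at 2.00, 1.78, 1.35 and 0.730 CPM, and in the tumor-bearing lungs at 0.497, 0.579, 1.01 and 0.387. Ccr7 ranged from 6.13 to 11.5 CPM in the former and from 8.30 to 9.76 in the latter. Neither passed against normal lung (adjusted p = 0.295 and 0.122) or against tumor-bearing lung (adjusted p = 0.0939 and 0.0933). B cell markers, 5 in number, summed to 4.55 and 2.19 CPM in tumors 6877 and 6880 and to 76.9 in tumor 6881. Tumor 6881 was thus the highest for 4 members of this group and for the B cell markers, a match in 1 library whose source was not tested.

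**Figure D3:**
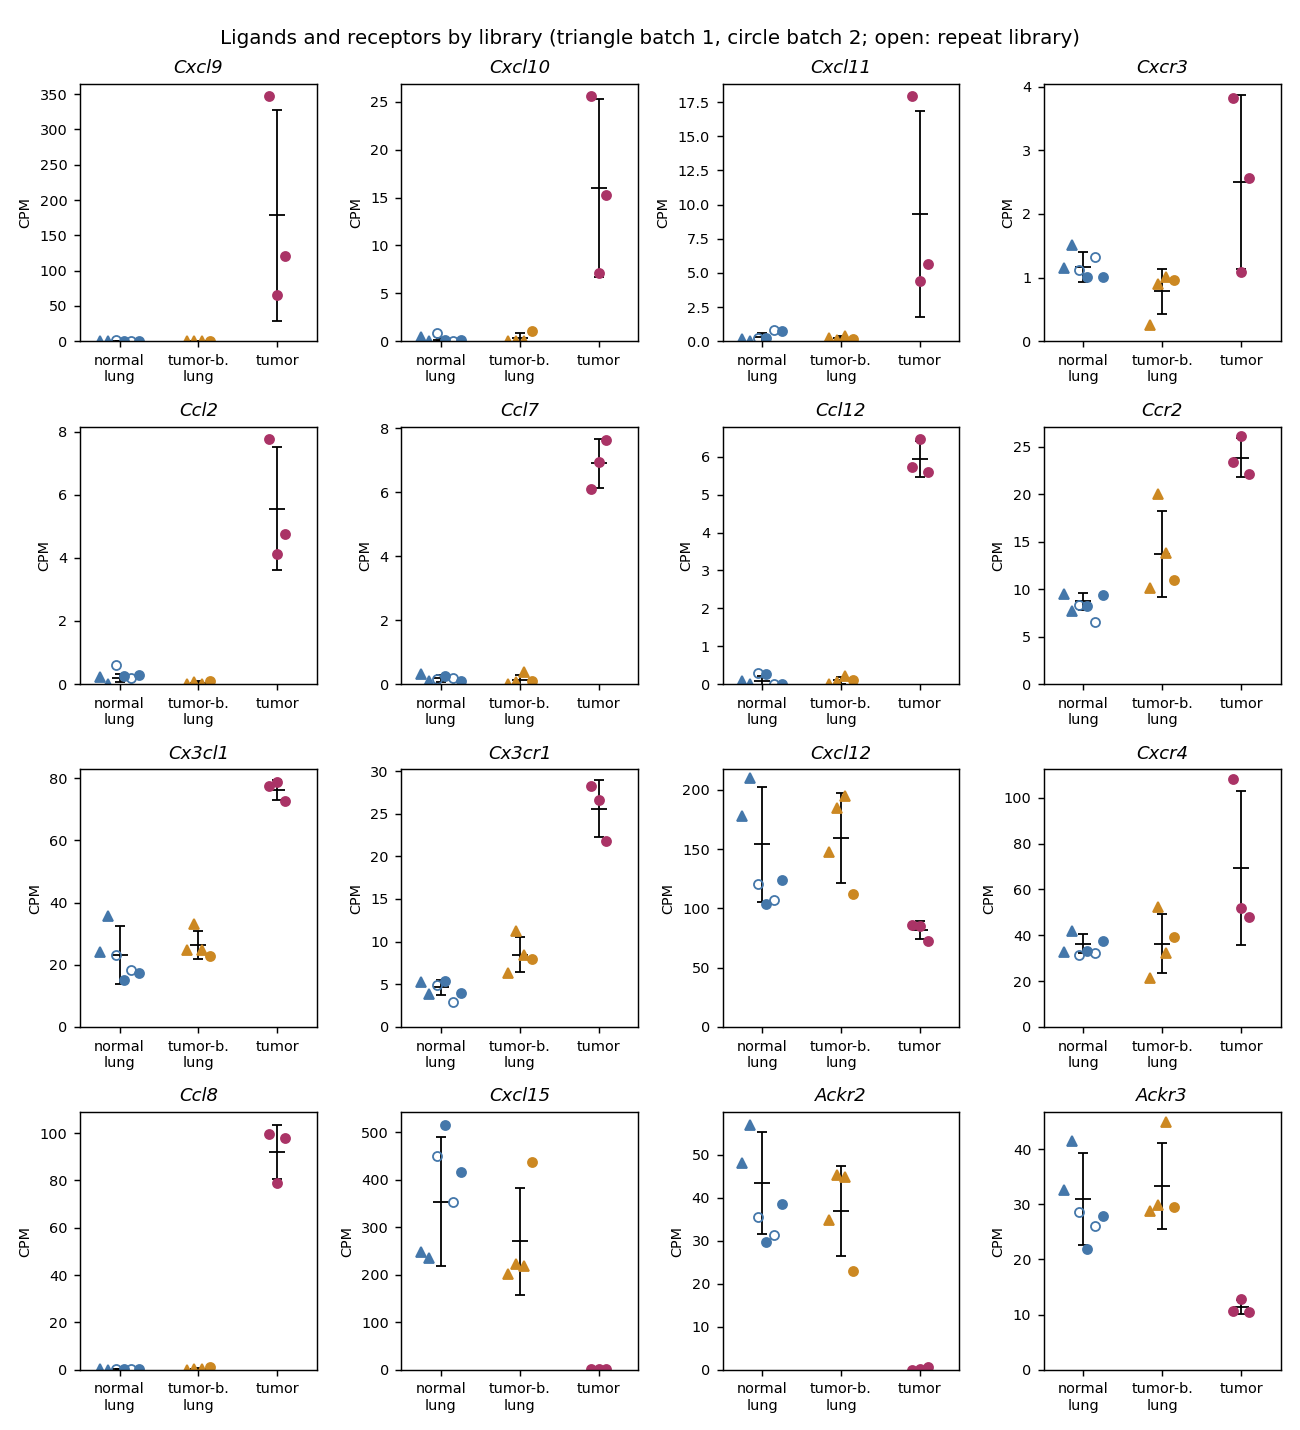
CPM by library of 16 members in normal lung, tumor-bearing lung and tumor, with triangles for batch 1, circles for batch 2, open symbols for repeat libraries not in the fits, and bars for the mean ± SD of the fitted libraries (n = 4, 4 and 3). Cxcl9, Cxcl10, Cxcl11, Ccl2, Ccl7, Ccl12 and Ccl8 lie near 0 in all lungs, Cxcl15 and Ackr2 near 0 in all tumors, and Cxcr3 and Cxcr4 have a tumor within or beside the range of the lungs.

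Ccl4, a ligand made by macrophages and T cells, stood at 1.80, 1.48 and 0.624 CPM in the tumors, 0.0767, 0.0888, 0.0847 and 0.274 in the normal and 0.622, 0.0644, 0.870 and 0.387 in the tumor-bearing lungs. It passed against normal lung (log2 fold change 3.12, SE 0.89, adjusted p = 0.0124), a call lost without normal lung 6887. Against tumor-bearing lung the groups overlapped and the value was 1.25 (SE 1.02, adjusted p = 0.339). Cxcr6, a receptor of resident T cells, stood at 7.18, 4.53 and 4.05 CPM in the tumors, 1.69, 1.51, 2.46 and 2.55 in the normal and 0.870, 2.12, 3.33 and 1.84 in the tumor-bearing lungs. The tumors lay above the lungs, of which tumor-bearing lung 6881 came closest. Its log2 fold change over normal lung was 1.21 (SE 0.46, adjusted p = 0.0470), a call lost without tumor 6877 or 6880 or any one normal lung. Over tumor-bearing lung it was 1.09 (adjusted p = 0.125). Its ligand Cxcl16 stood at 71.0, 38.6 and 38.4 CPM in the tumors, 52.8, 49.6, 42 and 42.7 in the normal and 33.9, 41.4, 39.4 and 38.8 in the tumor-bearing lungs, overlapping groups without a call.

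Cxcl12, which holds stem cells and lymphocytes in place, was lower in the tumors than in normal lung, while its receptor Cxcr4 did not pass. Cxcl12 stood at 86.4, 85.4 and 72.8 CPM in the tumors, 178, 210.5, 104 and 124 in the normal and 147, 185, 195 and 112 in the tumor-bearing lungs. The tumors lay under every lung, and the lungs of batch 2 were nearest to them. In edgeR it differed by a log2 fold change of -0.52 (SE 0.18, adjusted p = 0.0278) over normal lung, lost without tumor 6881, normal lung 6888 or normal lung 6893. Over tumor-bearing lung it was -0.42 (SE 0.19, adjusted p = 0.0971), and with the mouse as a block -1.02 (adjusted p = 0.0233). Cxcr4 stood at 108, 52.1 and 48.1 CPM in the tumors, 32.6, 41.8, 33.3 and 37.6 in the normal and 21.5, 52.2, 32.5 and 39.1 in the tumor-bearing lungs. Tumor 6877 was far above the lungs, and the other two were near the highest of them. The log2 fold changes of Cxcr4 were 0.91 (SE 0.36, adjusted p = 0.0568) and 0.90 (SE 0.40, adjusted p = 0.0874), short of the threshold. Ackr3, the second receptor of Cxcl12, which clears it, stood at 10.7, 12.8 and 10.5 CPM in the tumors, 32.6, 41.6, 21.9 and 27.9 in the normal and 28.8, 29.9, 45.0 and 29.5 in the tumor-bearing lungs. It fell in the tumors by 1.22 on the log2 scale (SE 0.23, adjusted p = 0.000987) against normal lung and by 1.24 (SE 0.25, adjusted p = 0.00163) against tumor-bearing lung.

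The other atypical receptors fell further. Ackr2, which degrades inflammatory CC chemokines such as Ccl2, stood at 0, 0.156 and 0.546 CPM in the tumors, 48.2, 57.0, 29.6 and 38.6 in the normal and 34.8, 45.2, 44.8 and 22.9 in the tumor-bearing lungs. Tumor 6877 had no count at all, and every lung was far above the tumors. The fit gave Ackr2 a log2 fold change of -6.93 (SE 0.45, adjusted p = 3.02e-07) over normal and -6.52 (SE 0.47, adjusted p = 9.29e-07) over tumor-bearing lung. Ackr4, which clears Ccl19 and Ccl25, stood at 0.599, 0.390 and 0.390 CPM in the tumors, 9.05, 5.95, 6.61 and 4.93 in the normal and 5.59, 7.53, 10.9 and 7.63 in the tumor-bearing lungs. Its groups did not overlap, with log2 fold changes of -3.73 (SE 0.40, adjusted p = 1.39e-05) and -3.94 (SE 0.42, adjusted p = 1.72e-05). Ccrl2 stood at 3.71, 4.14 and 3.04 CPM in the tumors, 23.6, 34.5, 19.9 and 22.3 in the normal and 14.1, 20.8, 19.1 and 22.0 in the tumor-bearing lungs. It too was lower in each tumor than in any lung, with log2 fold changes of -2.72 (SE 0.28, adjusted p = 9.92e-06) and -2.31 (SE 0.29, adjusted p = 6.12e-05). Ackr1, at most 0.468 CPM in any tumor, was not tested. All 4 tested atypical receptors had negative values under every alternative tried. Against tumor-bearing lung all 4 lost their calls in limma on log2(TPM + 1), with adjusted p up to 0.549. On log2(TPM + 0.1) Ackr2, Ackr4 and Ccrl2 kept theirs and Ackr3 did not. Against normal lung all 4 kept their calls on both TPM scales. The cause of the loss was not tested. Markers of vessels moved with them: 5 endothelial markers summed to 61.5 to 79.1 CPM in the tumors and 1044 to 2489 in all fitted lungs, and 4 lymphatic markers to 10.7 to 16.6 CPM in the tumors and 152 to 361 in these lungs. All 5 and all 4 passed as lower in the tumors in both comparisons, where 24.7% and 23.7% of all genes were lower. The part of vessels in the fall of the receptors was not tested.

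Cxcl15 had the largest negative value of the members tested. It stood at 0.718, 0.780 and 1.25 CPM in the tumors, 249, 235, 516 and 415 in the normal and 202, 223, 218 and 437 in the tumor-bearing lungs. Lungs of batch 2 were higher than those of batch 1, and no tumor came near either. This made a log2 fold change of -8.97 (SE 0.27, adjusted p = 5.11e-09) over normal and -8.83 (SE 0.27, adjusted p = 7.60e-09) over tumor-bearing lung, and it moved with the markers of lung epithelium given above. Ccl17, a ligand of dendritic cells for Ccr4, stood at 0.718, 0.390 and 0.936 CPM in the tumors, 1.76, 0.888, 2.46 and 2.74 in the normal and 1.12, 0.837, 0.290 and 0.773 in the tumor-bearing lungs. Tumor 6881 was above normal lung 6888, so these groups overlapped. It fell by 1.78 on the log2 scale against normal lung (SE 0.57, adjusted p = 0.0211), a call lost without tumor 6880, normal lung 6887 or normal lung 6893. Against tumor-bearing lung the value was -0.62 (adjusted p = 0.480). Ccl22, the other ligand of Ccr4, stood at 1.44, 3.36 and 3.04 CPM in the tumors and 6.83, 5.06, 3.90 and 7.84 in the normal lungs, and did not pass (adjusted p = 0.0777).

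Of the tested members not named so far, Ccl11, a ligand for eosinophils, stood at 3.59, 3.59 and 2.42 CPM in the tumors and 1.16 to 1.61 in the normal lungs (adjusted p = 0.388). Ccl25 at 6.79 to 11.2, Cxcl14 at 42.8 to 49.0 and Ccr6 at 0.718 to 2.42 CPM in the tumors had log2 fold changes of -0.26 to 0.33 over the lung groups and did not pass. Among the untested, Ccl20 had 8 counts over the 3 tumors and 0 over the 4 tumor-bearing lungs. Set against 3 counts over that group, the 8 counts stand for a 3.74-fold higher level in the tumors, with the counting error of the 8 left out. In normal lung it had 1 count, a ratio of 11.1 (exact 95% counting interval 1.49 to 492). Cxcl3 had 10 counts in the tumors and 3 in the normal lungs, a ratio of 4.62 (exact 95% counting interval 1.19 to 26.1).

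Ligands and receptors were paired by a list of 37 pairs. Against normal lung, both partners were tested in 26 pairs. In 7 pairs both were higher, in 1 both were lower (Cxcl12 with Ackr3), in 1 the ligand was higher and the receptor lower (Cxcl11 with Ackr3) and in 1 the reverse (Ccl6 with Ccr1). In 8 pairs the ligand alone passed, in 5 the receptor alone, and in 3 neither. Against tumor-bearing lung both partners were higher in 6 of 26 pairs, both lower in none, and the ligand was higher and the receptor lower in 3. Pairs share genes, so these counts are not independent of each other. Of the chemokine genes that are no members, 4 ligands were tested, of which 3 were lower in the tumors than in normal lung and none higher, where 24.7% of all genes were lower and 24.5% higher. The platelet ligand Ppbp had a log2 fold change of -4.91 (adjusted p = 0.000461) and the lymphatic ligand Ccl21a one of -3.72 (adjusted p = 0.0118). Of 6 receptors, 1 was higher and 1 lower, Cmklr1 with -2.62 (adjusted p = 8.62e-06). Of 13 genes of signaling and turnover, none was higher and 6 were lower, among them Dpp4, a protease that trims chemokines, with -3.93 (adjusted p = 4.36e-05), and Arrb1, a beta-arrestin, with -3.34 (adjusted p = 1.82e-05).

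The lungs of tumor-bearing mice were then compared with those of normal mice, the question the series was designed for. No member passed the threshold. In this comparison 26 members could be tested, and the 19 others, among them all of the ligands of Cxcr3 and of Ccr2, were too low, with 2.17 CPM (Cxcl1 in lung 6881) as their highest value. With edgeR 0 of the 26 were called, against 6 of 16727 genes (0.0359%, with 0.012% higher and 0.0239% lower). At an unadjusted p below 0.05 there were 9 of 26, 2 higher (Ccr2 and Cx3cr1) and 7 lower (Ccl6, Ccl9, Ccl17, Ccl19, Cxcl14, Cxcl16 and Ackr2), where all genes gave 14.0%, 6.13% higher and 7.87% lower. Voom called none of the members and DESeq2 called Ccl9 (adjusted p = 0.0482). On simulated data of these group sizes edgeR found 29% of genes shifted by 1 on the log2 scale and 91% of those shifted by 2. The shifted genes were drawn from those with higher mean counts, and no batch effect was simulated. These shares thus do not apply to members with few counts, such as Ccl19 and Cxcr3.

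By role the values leaned apart. The log2 fold change was negative for 12 of 13 tested ligands and positive for 8 of 9 tested signaling receptors, with medians of -0.31 and 0.33. The median over all members tested was -0.12 and over all genes 0.01. This lean was not tested, and the receptors' direction depends on the scaling: on log2(TPM + 1), where the median of all genes was itself -0.23, 13 of 13 ligands and 7 of 9 receptors were negative. Within batch 1 all 13 ligands were negative and 7 of 9 receptors positive, and within batch 2 9 of 13 and 6 of 9. Batch 2 holds 1 tumor-bearing lung, so its values rest on lung 6877.

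The 5 members with the smallest p were Ccl9, Ccl19, Cx3cr1, Ccl6 and Cxcl14. Ccl9, with the CPM given above, had a log2 fold change of -0.89 (SE 0.24, adjusted p = 0.205), with -1.11 within batch 1 and -0.39 within batch 2. Lungs 6879, 6880 and 6881 were under every normal lung, and lung 6877 was within their range. Ccl19, which brings dendritic cells and T cells together, had -1.39 (SE 0.39, adjusted p = 0.208), and -1.38 and -1.60 within the batches. Only lung 6881 was above the lowest normal lung, 6893. Cx3cr1 had 0.87 (SE 0.25, adjusted p = 0.217), and 0.95 and 0.88 within the batches. Each tumor-bearing lung was above each normal lung. Ccl6 had -0.65 (SE 0.20, adjusted p = 0.227), with -0.98 within batch 1 and -0.02 within batch 2. In batch 1 the tumor-bearing lungs lay under the normal ones, and in batch 2 lung 6877 was level with them. Without lung 6877 Ccl6 passed as lower. Cxcl14, a ligand made by epithelium and stroma, stood at 65.0, 68.5, 50.5 and 58.6 CPM in the normal and 46.6, 52.3, 51.9 and 45.3 in the tumor-bearing lungs. The log2 fold change was -0.35 (SE 0.11, adjusted p = 0.253), with -0.38 and -0.12 within the batches.

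**Figure D4:**
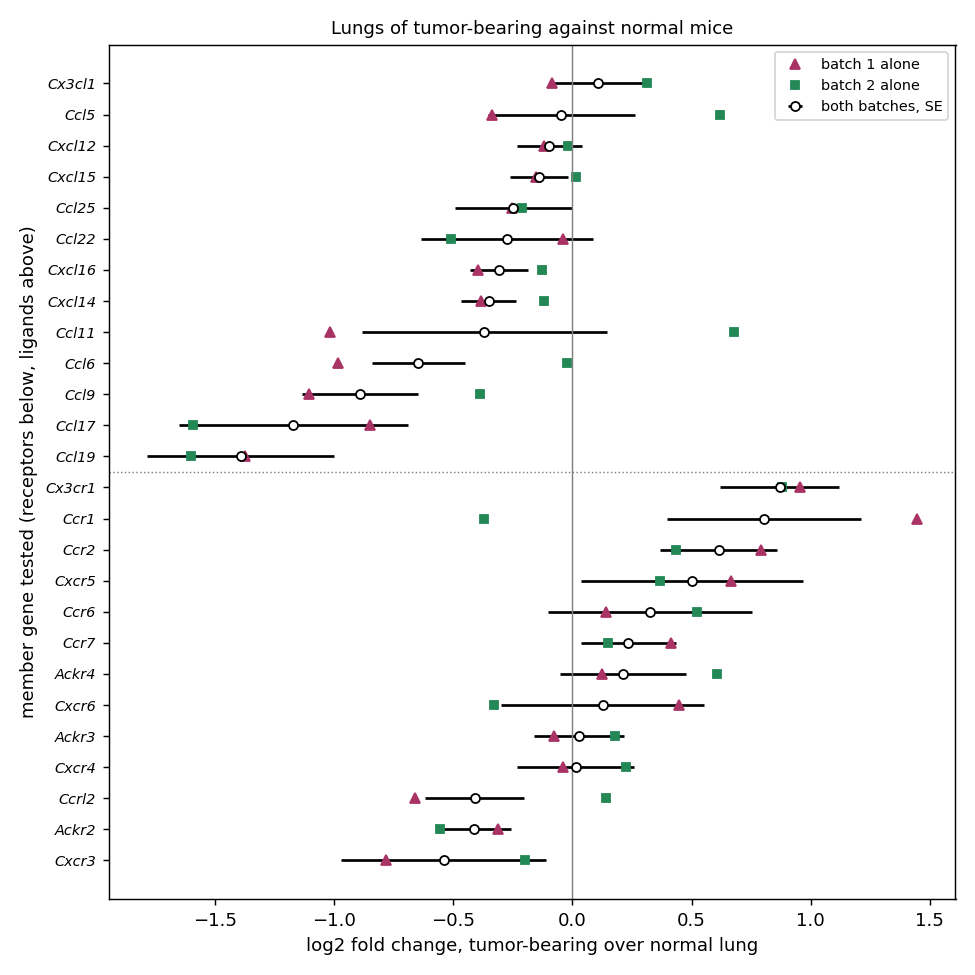
Log2 fold change of tumor-bearing over normal lung for the 26 tested members, ligands above and receptors below, with open circles and standard errors for both batches together, triangles for batch 1 and squares for batch 2 alone. Of the 13 ligands 12 lie left of 0 and of the 9 signaling receptors 8 lie right of it, and 9 of the 26 members, among them Ccr1, Ccl5 and Ccl11, have their batches on opposite sides.

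The groups of lungs did not overlap for 3 of the 26 members, Cxcl16, Ccr2 and Cx3cr1, against 5.7% of all genes. Ccr2 had a log2 fold change of 0.61 (SE 0.25, adjusted p = 0.321), with 0.79 within batch 1 and 0.43 within batch 2. Ccr2 and Cx3cr1 are the receptors that part classical from patrolling monocytes, and the 7 monocyte and macrophage markers had a median log2 fold change of -0.18 within batch 1 and 0.34 within batch 2. Over both batches 4 of the markers were positive and 3 negative. With edgeR 1 of them, Ly6c2, reached an unadjusted p below 0.05 (log2 fold change 0.73, adjusted p = 0.333). It had 0.44 within batch 1 and 1.165 within batch 2. Cxcl16 had -0.31 (SE 0.12, adjusted p = 0.316). Ccr1 had 0.80 (SE 0.41, adjusted p = 0.410), but 1.45 within batch 1 and -0.37 within batch 2, so its direction did not hold within batches. In all, 9 of the 26 tested members had opposite signs in the batches: Ccr1, Ccl5 (-0.34 and 0.62), Ccl11 (-1.02 and 0.68), Cxcr6 (0.45 and -0.33), Ccrl2 (-0.66 and 0.14), Cx3cl1, Cxcr4, Ackr3 and Cxcl15. Of 22 tested chemokine pathway genes that are no members, edgeR and voom called 0 in the lungs. An unadjusted p below 0.05 was reached by 8, of which 6 were higher, where all genes gave 14.0%, with 6.13% higher. DESeq2 called 3 that relay or end the receptor signal, Grk6 and Dock2 as higher and Gnai2 as lower. It called 445 of 32303 genes in all. In edgeR Gnai2 had a log2 fold change of -1.14 within batch 1 and -0.04 within batch 2. Cxcr2 was among the 8, with a log2 fold change of 1.08 (adjusted p = 0.266), and with 1.39 within batch 1 and 0.59 within batch 2. The tested neutrophil markers had larger positive values than Cxcr2 in these lungs. The 4 tested of 6 (S100a8, S100a9, Csf3r and Retnlg) had log2 fold changes of 2.15 to 2.67, all 4 at an unadjusted p below 0.05. With edgeR and voom 0 of them were called, and DESeq2 called 3, with no adjusted p for Retnlg. Ly6g and Mmp8 were too low to be tested. Ly6g, the defining marker, went the other way, with 0 counts in all 4 tumor-bearing lungs but not in all normal lungs. In batch 1 the 6 markers summed to 10.4 and 10.6 CPM in the normal and 120.5, 53.4 and 50.8 in the tumor-bearing lungs, and in batch 2 to 63.6 and 14.3 against 140.1. Within each batch the tumor-bearing lungs were thus above the normal ones, and the part of these cells in the values of Cxcr2 and Ccr1 was not tested.

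The repeat libraries show what preparation does to these genes within a mouse. In mice 6886 and 6888, 26 members had at least 10 counts in all 4 libraries, of which 10 were higher in batch 2 in both mice and 13 lower in both. Ccl6 was higher by 1.84 and 1.55 on the log2 scale, from 26.9 to 96.1 CPM and from 32.9 to 96.2 CPM, and Ccr1 by 1.22 and 1.72. These were the 2 members that differed by more than 2-fold in both mice. For Ccl6 and Ccr1 the difference between batches of 1 mouse was thus larger than the difference between the groups of lungs in the fit. Cx3cr1 differed by -0.11 and -0.40 and Ccr2 by -0.19 and -0.25 between the batches of these mice, less than their differences between the lungs.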

How the data were processed

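RNA of 20 mg of frozen lung or tumor was made into ribosome-depleted libraries from 100 ng and sequenced with single reads of 75 bases, per the labels' protocols. The submitters' processing notes name Salmon, DESeq2 1.18.1 and build mm10, without their roles. The estimated counts (expected counts) and TPM were deposited by the authors, 1 table each for 13 libraries, with 0 columns of no sample. In 5094 genes checked, count divided by TPM differed between libraries by 1 factor per library (largest log2 deviation 7.99e-15): these counts are scaled TPM, and they were rounded here. Of 46679 IDs, 46201 were named from GENCODE M21. p-values measure the spread between mice within a group, with 1 library per mouse and tissue. The main tumor fits hold no term for the mouse.

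edgeR 4.0.16 (R 4.3.3; quasi-likelihood, TMM, filterByExpr) fitted group and preparation batch over 8 lungs, and over 11 libraries for the tumors, with p adjusted by Benjamini-Hochberg over all genes tested. voom of limma 3.58.1, DESeq2 1.42.0 and limma on log2 TPM (pseudocounts 1 and 0.1) were alternatives. Bounds use a floor of 3 counts over the group with 0 counts and leave out the counting error of the other group. The 95% intervals reflect counting error only. Neither covers more than that, because PCR copies were not marked by molecular identifiers. The fits were tested on simulated data. Values of every library are given for called members (up to 8 per direction), for the 5 of smallest p where fewer than 5 were called, and for their paired ligands or receptors; other members with values were added after these were seen. The members, lists and tests were chosen with earlier results of these data known. Tumors and lungs of mice 6877, 6880 and 6881 come from the same animals, and their residuals correlated by 0.179, 0.0355 and -0.133 over 18297 genes. Splits by preparation batch and leaving out each library were tried too.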

Additional observations from a re-analysis of the deposited data

Results flagged for a closer look

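In 49 groups of 4 lungs, one for each member and group with a mean of at least 1 CPM, 4 had a library whose gap to the nearest other library was large against the range of the group. Chance gives such a gap in about 1 in 20 groups. Ccl6 stood at 97.6 CPM in tumor-bearing lung 6877, against 12.5 to 16.7 in the other 3. Cxcl15 stood at 437 CPM in the same lung, against 202 to 223. Lung 6877 is the only tumor-bearing lung of batch 2, and the normal lungs of batch 2 were also higher in both genes than those of batch 1. Ackr3 stood at 45.0 CPM in tumor-bearing lung 6881, against 28.8 to 29.9 in the others. Ccr6 stood at 1.61 CPM in normal lung 6886, against 0.977 to 1.02.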

How the results depend on the processing

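No value of a called member changed sign under any alternative run. Of the single values tested again, 367 against normal lung, 337 against tumor-bearing lung and 86 in the lungs kept their side of the threshold, while 33 and 23 lost it and 4 gained it. In the lungs the count of members lower, 0, became 1 with DESeq2 (Ccl9), 2 with limma on log2(TPM + 1) (Ccl17 and Ccl19) and 1 with log2(TPM + 0.1) (Ccl19), and ran from 0 to 1 on leaving out 1 library. Tumors against tumor-bearing lung had 5 members lower and 1 with limma on log2(TPM + 1), and from 9 to 16 higher on leaving out 1 library, the fewest without lung 6877. Over all genes the lung comparison called 6, but 275 with no filter, 445 with DESeq2, 90 and 65 on log2 TPM, 39 in batch 1, 8 in batch 2, 1 without the batch term, 1 with the batch 2 libraries of repeated mice, and 0 to 221 on leaving out 1 library; the cause was not tested. On log2(TPM + 1) and log2(TPM + 0.1) the share of higher calls was 77.8 and 67.6% against 48.7% (tumor over tumor-bearing lung), 40.5 and 36.6% against 49.8% (tumor over normal lung) and 4.44 and 6.15% against 33.3% (lungs). With the replicate block, the pairing of 3 mice, 14 members were higher and 6 lower than in tumor-bearing lung: Ccr2 lost and Cxcl12 gained its call, and the other 19 kept theirs. Low counts limit the lungs most, where 19 members were not tested.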
